A study of Rattus norvegicus with 24 samples.

Results

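The Schwann cell and myelin genes Mbp, Pmp22, S100b, Sox10, Prx, Mag and Egr2 were followed in the injured rat urethra. Each was found by its symbol in the deposited table, which held 1 row for each of the 7 among its 32883 genes. Urethras were taken from wild-type virgin Sprague-Dawley rats aged 12 weeks that had undergone simulated vaginal delivery (SVD), in which the vagina is distended with a balloon and the pudendal nerve is crushed. All 6 groups carried this injury, so no group shows the uninjured urethra. At 1 h after SVD the rats received saline, 500000 allogeneic mesoangioblasts (MABs) or the same number of MABs that express VEGF (MABs-VEGF) into the aorta. MABs are stem cells of the vessel wall, here taken from hind limb muscle and marked by lentivirus with eGFP and luciferase, and in MABs-VEGF another lentivirus with the SFFV promoter drives VEGF165 and a truncated CD34. Tissue was collected 3d or 7d later, with 4 samples in each group. The labels of MABs-VEGF 7d replicates 6 and 7 carry the word recovery. Nothing in the labels says which samples came from which animals, so p-values measure the spread between these samples.

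Schwann cells wrap axons of peripheral nerves in myelin, a stack of membrane held together by a small set of proteins. Sox10 is the transcription factor of the lineage at every stage, and Egr2 (Krox20) is the factor that turns on the myelin programme under it. Mbp and Pmp22 are structural myelin proteins, Prx (periaxin) links the Schwann cell membrane to its skeleton and the basal lamina, and Mag is the adhesion protein that faces the axon. S100b is a calcium-binding protein long used to stain Schwann cells. After a nerve is crushed, Schwann cells beyond the crush lower their myelin genes and enter an immature, repair-like state marked by genes such as Ngfr, Gap43 and Sox2, and they make myelin again when axons return. Several of these genes are also used by other cells: Pmp22 by fibroblasts, S100b by fat cells, Sox10 by melanocytes and glands, and Egr2 by immune cells as an early response gene.

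As sequence context for the SOX and EGR factors, the 250 bases before a transcription start were taken from the RefSeq promoter table of build GRCr8, which holds entries for 6 of the 7 genes. That build differs from the one used for the counts. The short sequences ACAAAG and AACAAT, forms of the site bound by SOX factors, and GCGTGGGCG and GCGNGGGCG, forms of the site bound by EGR factors, were searched on both strands. ACAAAG was present in 16.3% of 33469 promoters of the same length, AACAAT in 10.3%, GCGNGGGCG in 4.29% and GCGTGGGCG in 0.478%. The 3 sequences shown are those of Mbp, at the downstream of its 2 starts, of Mag and of Prx. The values of these genes rose highest in the same sample, as did those of Pmp22 and Egr2, whose sequences are not shown. Capitals mark ACAAAG and AACAAT on either strand.
Mbp, downstream start (chr18:78209995-78210244, strand +): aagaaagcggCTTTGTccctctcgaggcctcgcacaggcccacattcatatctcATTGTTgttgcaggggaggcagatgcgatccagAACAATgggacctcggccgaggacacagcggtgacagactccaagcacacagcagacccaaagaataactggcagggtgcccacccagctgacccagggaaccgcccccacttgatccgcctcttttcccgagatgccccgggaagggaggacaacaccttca
Mag (chr1:95291045-95291294, strand -): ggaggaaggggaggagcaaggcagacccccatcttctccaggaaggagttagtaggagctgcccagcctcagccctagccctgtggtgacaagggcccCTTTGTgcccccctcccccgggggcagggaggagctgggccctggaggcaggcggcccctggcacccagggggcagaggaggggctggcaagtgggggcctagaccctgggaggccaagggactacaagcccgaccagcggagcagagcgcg
Prx (chr1:91914171-91914420, strand +): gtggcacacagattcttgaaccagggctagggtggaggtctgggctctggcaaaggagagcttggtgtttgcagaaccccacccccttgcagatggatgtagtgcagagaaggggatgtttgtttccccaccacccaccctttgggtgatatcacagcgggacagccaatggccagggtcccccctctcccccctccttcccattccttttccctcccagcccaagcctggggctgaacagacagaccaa
The Mbp sequence held 1 ACAAAG and 2 AACAAT and the Mag sequence held 1 ACAAAG, all shown in capitals. Prx, Pmp22, S100b, Egr2 and the upstream start of Mbp held none of the 4 sequences in these 250 bases.

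The libraries were 3ʹ mRNA libraries with 2170695 to 10166052 reads on genes, and 1 read was worth 1.67 to 9.23 normalized counts, the unit in which all levels below are given. Of the 32883 genes, 16287 had a mean of at least 2 and were tested, all 7 Schwann cell and myelin genes among them. Differences were tested with limma on log2(normalized count + 1), which understates the change of low genes, and a gene was called when its adjusted p (Benjamini-Hochberg over all genes tested) was below 0.05 and its log2 fold change was beyond 1. In bulk tissue, fewer Schwann cells and less RNA per Schwann cell cannot be told apart. Some libraries stood apart. The milk protein genes Csn1s1, Csn2, Csn3, Lalba and Wap, a list added after the data were seen, summed to 28809 in saline 3d replicate 8, 43287 in saline 7d replicate 3 and 158188 in MABs-VEGF 7d replicate 11, and to 57.2 to 482 in the other 21 samples. The urothelial genes were lowest in saline 3d replicate 8 (745) and MABs-VEGF 3d replicate 2 (1117), against 7486 to 48709 elsewhere. The row AY172581.24 took 12.1% to 20.7% of all counts in the 4 MABs 3d libraries and 15.6% to 20.6% in 3 of 4 MABs-VEGF 3d libraries, but 3.46% in MABs-VEGF 3d replicate 4, 7.31% in saline 3d replicate 6 and at most 2.11% in every other library.

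All 7 genes were found in the urethra, at very different depth of evidence. Pmp22, S100b and Mbp rested on medians of 1456, 332 and 118 reads per library, Sox10 on 52.5, Egr2 on 25 and Prx on 19. Mag rested on a median of 1 read, was at 0 in 10 of 24 libraries and had 3 reads or fewer in 19. Levels varied widely between libraries. For the genes other than Mag, the SD within a group ran from 18.2% of the mean (Sox10, MABs 7d) to 172% (Mbp, MABs-VEGF 7d). The highest library exceeded the median of the 24 libraries 20.6 times for Mbp, 13.5 times for Sox10, 11.7 times for Prx, 8.76 times for S100b, 5.83 times for Egr2 and 3.20 times for Pmp22. A single library, MABs-VEGF 7d replicate 11, was among the 3 highest for 6 of the 7 genes, all but S100b. Saline 3d replicate 8 was among the 3 highest for Mbp, S100b, Sox10, Prx and Egr2, and saline 7d replicate 1 for S100b, Prx, Mag and Egr2.

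**Figure D1:**
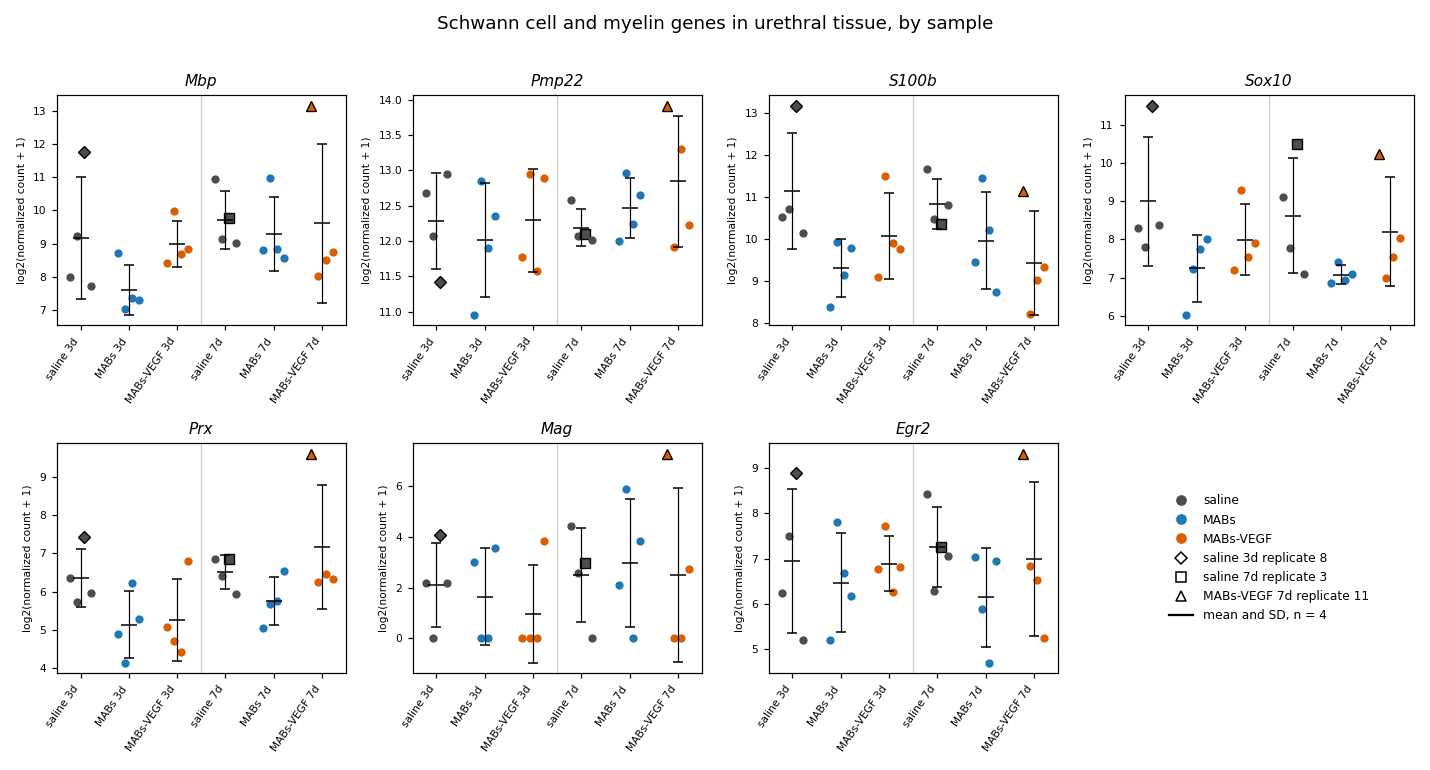
Level of each gene, as log2(normalized count + 1), in the 24 samples by group, with points for samples and bars for the mean and SD of 4 samples. The 3 samples with milk protein transcripts have their own symbols, and the triangle, MABs-VEGF 7d replicate 11, is the highest point for Mbp, Pmp22, Prx, Mag and Egr2 (9046 normalized counts for Mbp).

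Mbp, a structural protein of the compact myelin sheath, had 603, 3434, 211 and 253 normalized counts in saline 3d replicates 6, 8, 9 and 10. In MABs 3d it had 419, 131, 166 and 157, and in MABs-VEGF 3d it had 341, 1008, 414 and 463, in replicates 1 to 4. MABs 3d thus held the 3 lowest values of the series, but its replicate 1 lay above 2 of the saline samples. At 7d Mbp had 1952, 563, 884 and 519 in saline replicates 1, 2, 3 and 5. It had 458, 384, 447 and 1992 in MABs 7d replicates 7.2, 9, 11 and 13, and 363, 431, 9046 and 262 in MABs-VEGF 7d replicates 6, 7, 11 and 12. At 7d each group thus had 3 samples below 900 and 1 well above them.

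By median, Mbp ran from saline 7d (723) through MABs 7d (453), MABs-VEGF 3d (438), saline 3d (428) and MABs-VEGF 7d (397) to MABs 3d (162). No neighbours in this order had ranges that were apart, and this held for each of the 7 genes. The means tell another order, because 1 library sets them: MABs-VEGF 7d had a mean of 2525 ± 4348 (SD, n = 4) and saline 3d one of 1125 ± 1549. Among the genes closest to Mbp over the 24 samples were Cldn19, which seals the myelin of Schwann cells, with a Pearson r of 0.87 on the log2 scale and a Spearman rho of 0.84, and the channel gene Hcn4, with 0.85 and 0.87. Without the 3 milk protein samples the r of Mbp with these genes was 0.77 and 0.81. These coefficients describe libraries that share their depth and tissue makeup and carry no test.

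Across the 24 libraries Mbp also followed S100b, with a Pearson r of 0.69 on the log2 scale and 0.62 without the 3 milk protein samples. The 5 libraries with the most Mbp were MABs-VEGF 7d replicate 11, saline 3d replicate 8, MABs 7d replicate 13, saline 7d replicate 1 and MABs-VEGF 3d replicate 2. The same 5 libraries were the highest for S100b, in another order.

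**Figure D2:**
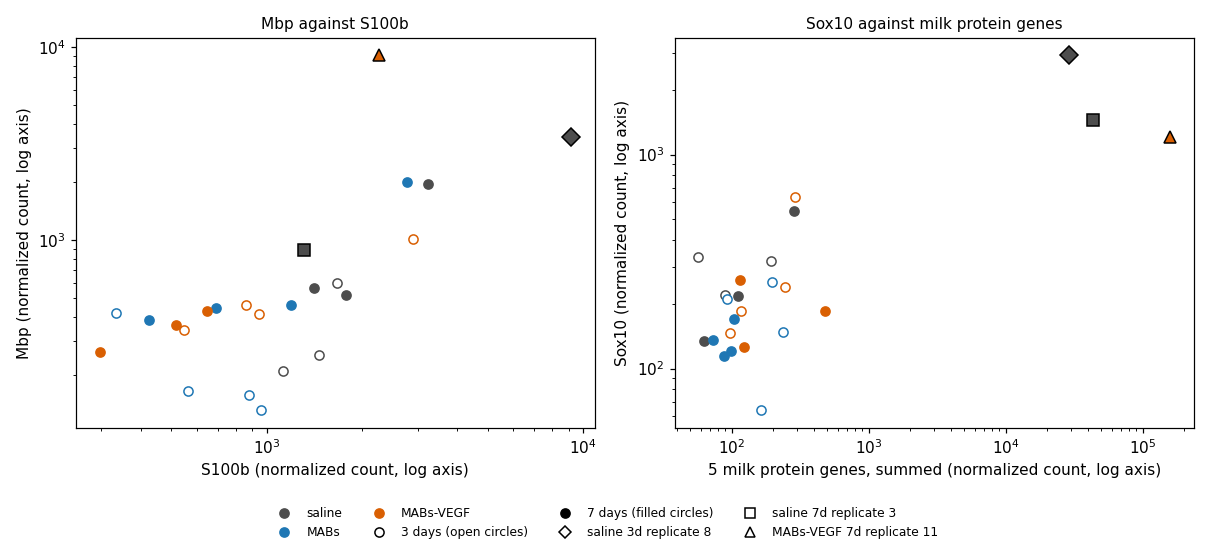
Left, Mbp against S100b, and right, Sox10 against the sum of 5 milk protein genes, each point being 1 of 24 samples in normalized counts on log axes. The 5 libraries with the most Mbp are also the 5 with the most S100b, and the 3 samples with milk protein sums of 28809 or more hold the 3 highest Sox10 values.

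Sox10, the factor that marks the whole Schwann cell lineage, had 220.4, 2908, 332 and 317 normalized counts in saline 3d replicates 6, 8, 9 and 10. In MABs 3d it had 63.9, 148, 212 and 255, and in MABs-VEGF 3d it had 146, 633, 187 and 240.4. At 7d it had 548, 219, 1457 and 135 in saline, 121, 136, 115 and 170.2 in MABs, and 185, 259.6, 1213 and 126 in MABs-VEGF. The 3 highest values of the series, 2908, 1457 and 1213, were those of the 3 libraries with milk protein transcripts, and the other 21 libraries ran from 63.9 to 633. Sox10 was the only one of the 7 genes whose 3 highest libraries were exactly these. Its closest genes were Tafa5 (r = 0.88), Phldb1 (r = 0.83) and Prr27 (r = 0.83), and without the 3 libraries the r was 0.70, 0.64 and 0.37. The part of milk protein tissue in these Sox10 values was not tested. Melanocytes also use Sox10, and of the 5 melanocyte genes found by symbol Tyr and Mlana were at 0 in all 24 libraries and Tyrp1 in 16. Pmel was at 0 in 2 libraries and Mitf, which other cells make too, in none. The summed level of the list ran from 568 to 2311 normalized counts, and its part in Sox10 was not tested.

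S100b, the calcium-binding Schwann cell marker, had 1673, 9168, 1129 and 1464 normalized counts in saline 3d replicates 6, 8, 9 and 10. In MABs 3d it had 334, 963, 563 and 879, so every MABs sample lay below every saline sample. In MABs-VEGF 3d it had 546, 2900, 948 and 859, of which 3 were below the saline range. At 7d it had 3247, 1411, 1316 and 1777 in saline, 1189, 424, 692 and 2776 in MABs, and 515, 647, 2262 and 296 in MABs-VEGF. Each cell-treated group at 7d thus had 3 samples below the lowest saline sample and 1 inside the saline range. The genes most like S100b were Thbs4 (r = 0.85), Ninj1 (r = 0.85), an adhesion gene induced in injured nerve, and Scara5 (r = 0.84). Across the 24 samples S100b followed Mbp (Spearman rho 0.69) and Sox10 (0.60), and its rho was 0.72 with the summed macrophage genes and 0.53 with the summed fat cell genes.

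Prx, which stabilises mature myelin, had 51.6, 172, 60.8 and 80.9 normalized counts in saline 3d, 28.4, 16.4, 73.9 and 38.0 in MABs 3d, and 32.4, 25.0, 20.2 and 111 in MABs-VEGF 3d. At 7d it had 115, 84.6, 114 and 59.7 in saline, 52.7, 92.7, 31.7 and 49.8 in MABs, and 87.1, 79.9, 788 and 75.7 in MABs-VEGF. Outside MABs-VEGF 7d replicate 11, which stood at 254 reads, the gene stayed between 3 and 44 reads in every library. Its closest genes were Mfge8 (r = 0.84), Fance (r = 0.80) and Qsox1 (r = 0.76). The Pearson r of Prx with Mbp was 0.64 over 24 samples and 0.19 over the 21 samples without milk protein transcripts. Mfge8 encodes a protein of milk fat globules.

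Egr2, the myelin transcription factor, had 179, 474, 35.7 and 73.9 normalized counts in saline 3d, 35.5, 224, 102 and 70.5 in MABs 3d, and 108, 208, 75.7 and 111 in MABs-VEGF 3d. At 7d it had 342, 77.2, 151 and 132 in saline, 24.8, 123, 130.1 and 58.1 in MABs, and 90.7, 37.1, 639 and 113 in MABs-VEGF. Its ranges overlapped in all comparisons, and its medians stayed between 86.0 and 141. The genes most like it were Palm (r = 0.78), Maob (r = 0.77) and Gprc5b (r = 0.77).

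Pmp22, a membrane protein of compact myelin that fibroblasts make as well, varied least. It had 4308, 2748, 7880 and 6563 normalized counts in saline 3d, 1981, 7375, 3831 and 5219 in MABs 3d, and 3482, 7934, 3037 and 7561 in MABs-VEGF 3d. At 7d it had 6115, 4291, 4364 and 4148 in saline, 4841, 6427, 4102 and 8005 in MABs, and 10099, 4806, 15424 and 3874 in MABs-VEGF. In saline 3d replicate 8, the library with the second highest Mbp, Pmp22 was the lowest of its group. The genes most like Pmp22 were P4ha2 (r = 0.80), which modifies collagen, the protease gene Pcsk5 (r = 0.79) and Cilp (r = 0.78), a matrix protein. Its Spearman rho with the summed fibroblast genes was 0.70, against 0.11 with Mbp.

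Mag, the adhesion protein next to the axon, reached more than 6 reads only in MABs 7d replicate 13 (14 reads, 58.1 normalized counts) and MABs-VEGF 7d replicate 11 (49 reads, 152). Both libraries were also among the 3 highest for Mbp. All 4 MABs-VEGF 3d libraries had 3 reads or fewer, so no fold change of Mag is given.

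At 3d, the comparison of MABs with saline asks whether the injected cells changed the early response of the tissue. All 7 genes had lower fitted values in MABs, but none was called, while 12.3% of all genes tested were. At an unadjusted p below 0.05 stood 2 of them, S100b and Sox10, against 31.4% of all genes. S100b was lower by a log2 fold change of -1.83 (SE 0.66, limma adjusted p = 0.063, 95% interval -3.20 to -0.46). The S100b ranges of the 2 groups did not overlap, as was so, in this direction, for 5.22% of all genes. Sox10 had -1.75 (SE 0.77, limma adjusted p = 0.12), Mbp -1.56 (SE 0.89, 0.23), Prx -1.24 (SE 0.68, 0.21), Egr2 -0.49 (SE 0.80, 0.71) and Pmp22 -0.27 (SE 0.43, 0.71). The median of the 7 was -1.24, and -1.40 without Mag, against 0.07 for all genes tested. Of the genes called, 76.7% were higher in MABs, but 56.2% after quantile normalization and 51.9% with equal library totals. These 2 scalings moved the median of all genes by -0.20 and -0.26. Among the 12 libraries of 3d, the Pearson r with the share of AY172581.24 was -0.49 for S100b, -0.51 for Sox10 and -0.76 for Prx. It was -0.33 for Pmp22, -0.20 for Mbp and -0.18 for Egr2. The part of that share in the lower values was not tested.

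The saline sample with milk protein transcripts carried much of the differences of Sox10 and Mbp. Without saline 3d replicate 8, the fold change of Sox10 went from -1.75 to -0.92 and that of Mbp from -1.56 to -0.71. That of S100b went to -1.15, with 334 to 963 in MABs and 1129 to 1673 in the other 3 saline samples. Replicate 8 was the highest saline sample for S100b, so leaving it out could not make these ranges overlap. Prx went from -1.24 to -0.88 and Egr2 turned to 0.16, while Pmp22 went the other way, from -0.27 to -0.55. S100b was called under quantile normalization (adjusted p = 0.041), equal totals (0.025), edgeR (0.040) and DESeq2 (0.011), and DESeq2 called Sox10 too (0.018). S100b was also called when a sample outside the comparison was left out, MABs-VEGF 3d replicate 2 (adjusted p = 0.0496) or MABs-VEGF 7d replicate 11 (adjusted p = 0.0467). In the fit of 21 samples that leaves out the 3 milk protein samples, no gene of the 7 was called and S100b had an adjusted p of 0.23.

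In MABs-VEGF against saline at 3d, none of the 7 was called, as against 0.0307% of all genes, and none had an unadjusted p below 0.05. That background of 5 genes depended on the processing and was 397 with DESeq2, while the count of the 7 stayed at 0 under all 19 alternatives. S100b had a log2 fold change of -1.07 (SE 0.66) and Prx -1.12 (SE 0.68), and the limma adjusted p of Sox10 was 0.52. Without saline 3d replicate 8 these fold changes were -0.40 for S100b, -0.76 for Prx and -0.17 for Sox10. Mbp (-0.19), Egr2 (-0.06) and Pmp22 (0.01) lay close to 0 and changed sign under several alternatives. Between MABs-VEGF and MABs at 3d no gene of the 7 was called, against 0.00614% of all genes. All 6 with enough reads had higher fitted values in MABs-VEGF, with a median of 0.59, and Mag, with too few reads, had a lower one. Mbp differed most, by 1.37 (SE 0.89, limma adjusted p = 0.86, 95% interval -0.46 to 3.21).

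At 7d, no gene of the 7 was called in any of the 3 comparisons between treatments, and 0% of all genes were. At an unadjusted p below 0.05 limma gave 1014 genes for MABs against saline, 1033 for MABs-VEGF against saline and 452 for MABs-VEGF against MABs, and edgeR and DESeq2 called none of the 7 either. Over all genes edgeR called 0 in each, and DESeq2 called 0, 26 and 4. S100b was lower in MABs-VEGF than in saline by -1.39 (SE 0.66, limma adjusted p = 0.78). Without the milk protein samples it was lower by -2.12 (SE 0.59, adjusted p = 0.24), with 515, 647 and 296 in MABs-VEGF and 3247, 1411 and 1777 in saline. Prx was higher in MABs-VEGF than in MABs by 1.42 (SE 0.68, limma adjusted p = 1), and by 0.60 without MABs-VEGF 7d replicate 11. The 2 samples labelled with recovery had Mbp at 363 and 431, S100b at 515 and 647 and Sox10 at 185 and 259.6. The other 2 MABs-VEGF 7d samples lay on either side of them for all 3 genes.

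**Figure D3:**
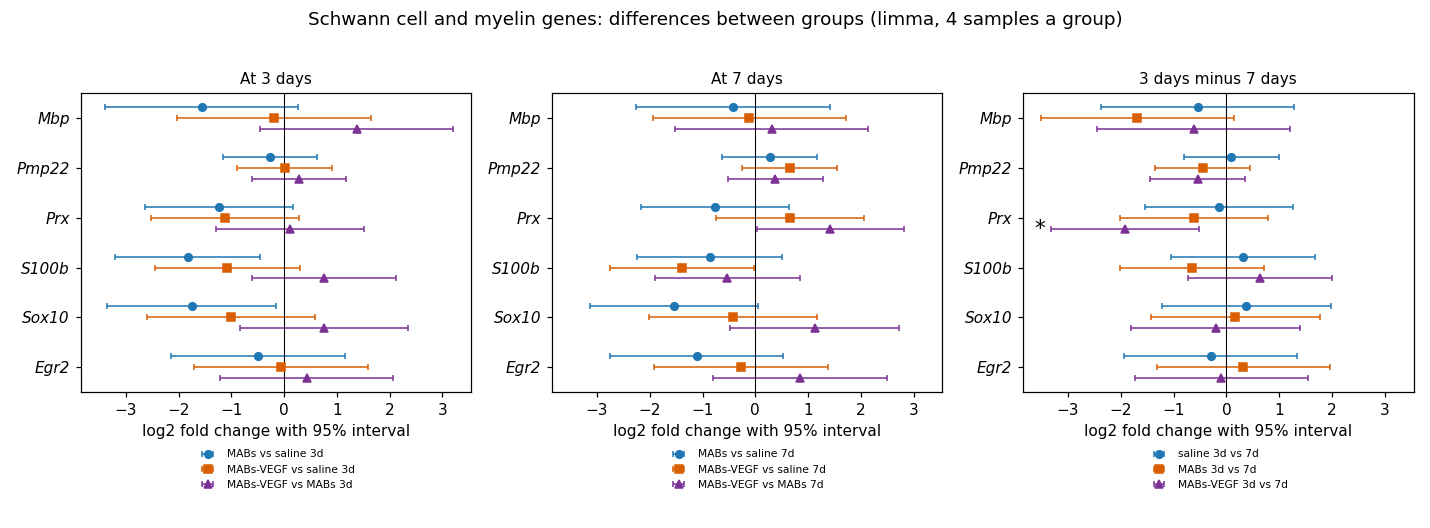
Log2 fold change of 6 genes in the 9 comparisons between groups, with the 95% interval from limma over 4 samples a group, and Mag left out for its low reads. A star marks the only call, Prx in MABs-VEGF at 3d against 7d (-1.93), and the interval of S100b for MABs against saline at 3d runs from -3.20 to -0.46.

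Between days, Prx was the only gene called. It was lower at 3d than at 7d in MABs-VEGF by a log2 fold change of -1.93 (SE 0.68, limma adjusted p = 0.047), where 15.3% of all genes were called. The values were 32.4, 25.0, 20.2 and 111 at 3d and 87.1, 79.9, 788 and 75.7 at 7d, so replicate 4 at 3d lay inside the 7d range. Without MABs-VEGF 7d replicate 11 the difference was -1.11 (adjusted p = 0.23) and the call was lost, as it was without replicate 1, 2 or 3 of MABs-VEGF 3d (adjusted p from 0.088 to 0.14). It was also lost, at adjusted p from 0.052 to 0.055, when 1 of 8 samples outside the comparison was left out, which were saline 3d replicates 9 and 10, MABs 3d replicate 4, all 4 saline 7d samples and MABs 7d replicate 7.2. In MABs none of the 7 was called between days, against 23% of all genes. Mbp had -1.69 there (SE 0.89, limma adjusted p = 0.16), and in the fit without the 3 milk protein samples, none of which is a MABs sample, the same difference had an SE of 0.53 and was called (adjusted p = 0.019). In saline none was called between days, against 3.19% of all genes, and the median of the 7 was -0.15.

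Whether the effect of MABs or of MABs-VEGF differed between 3d and 7d was tested with an interaction term. None of the 7 was called for either, and 0% of all genes were. Without adjustment, limma put 2212 and 1341 genes below a p of 0.05. Over all genes edgeR called 0 in both and DESeq2 called 78 and 1. The differences of the 6 genes other than Mag ran from -1.14 (Mbp) to 0.62 (Egr2) for MABs and from -1.78 (Prx) to 0.32 (S100b) for MABs-VEGF.

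A list of 18 immature, repair and non-myelinating Schwann cell genes had 4 called higher at 3d than at 7d in saline, 3 in MABs and 5 in MABs-VEGF, and none lower. Of all genes, 2.59%, 17.0% and 13.1% were called higher at 3d in the same comparisons, so the count in MABs was near the share of all genes. Its median log2 fold change was 0.83, 0.82 and 0.70, against 0.05 to 0.06 for all genes. No gene of the list was called between treatments, where in MABs against saline at 3d 12.3% of all genes were. Beside these counts, 73.7% of the calls between days in MABs and 85.4% in MABs-VEGF were of genes higher at 3d, or 54.2% and 67.9% after quantile normalization.

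Gap43, a protein of growing axons and of Schwann cells without myelin, had 1567, 1866, 1780 and 1408 normalized counts in saline 3d and 429.6, 204, 67.0 and 384 in saline 7d. It had 812 to 2079 in MABs 3d against 251 to 344 in MABs 7d, and 877 to 2650 in MABs-VEGF 3d against 233 to 450.0 in MABs-VEGF 7d. All 12 samples at 3d were above all 12 samples at 7d, and how many of all genes were so separated was not counted. Called higher at 3d were 2.59% of all genes in saline, 17.0% in MABs and 13.1% in MABs-VEGF. The log2 fold change was 2.91 (SE 0.43, limma adjusted p = 0.0023) in saline, 2.06 (adjusted p = 0.0012) in MABs and 2.21 (adjusted p = 0.0011) in MABs-VEGF. Between treatments at 3d Gap43 was not called.

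Sox2, a factor of immature Schwann cells and also of epithelial stem cells, was chosen after its values were seen. It had 651 to 1061 in saline 3d against 248 to 388 in saline 7d, with a log2 fold change of 1.37 (SE 0.39, limma adjusted p = 0.047), and it was higher by 1.77 in MABs and 1.67 in MABs-VEGF. Sox2 followed the share of AY172581.24 across the 24 libraries (Spearman rho 0.96), and so did the regulator Yy1 (0.95). Among the 12 libraries of 3d the Pearson r with that share was 0.89 for Sox2 and 0.94 for Yy1, but 0.04 for Gap43, whose Spearman rho across the 24 libraries was 0.67. What that share has to do with these genes was not tested. Other genes called in this list were Shh in MABs (5.04), which in the urethra is also an epithelial gene, Gdnf in MABs-VEGF (3.54) and Runx2 in saline (2.35). Ncam1 was called too, in saline (1.48) and MABs-VEGF (1.15), and Scn7a in MABs-VEGF (1.30). These calls of Ncam1 were lost under 8 and 11 of 19 alternatives and that of Scn7a under 9. The calls of Runx2, Gdnf, Shh and, in saline, Sox2 were lost under 13, 8, 4 and 11 of 19 alternatives.

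**Figure D4:**
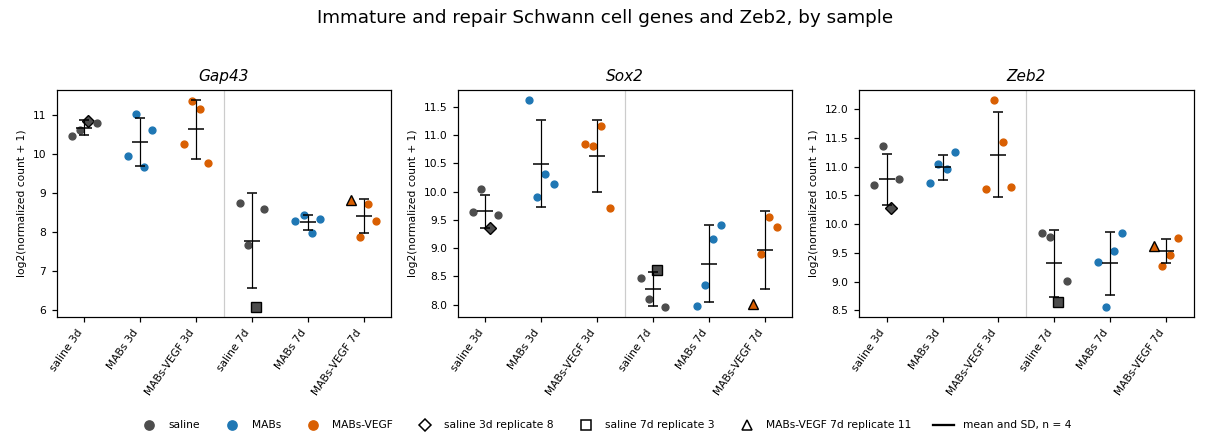
Level of Gap43, Sox2 and Zeb2, as log2(normalized count + 1), in the 24 samples by group, with bars for the mean and SD of 4 samples. All 3 genes are higher at 3d than at 7d in each treatment, and the Zeb2 samples run from 1243 to 4567 normalized counts at 3d and from 378 to 924 at 7d.

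Of 15 regulators and signals between axon and Schwann cell, 2 were called higher in MABs than in saline at 3d and none lower. That is close to the 9.40% of all genes called higher there. Yy1, a factor needed for the myelin programme but present in most cells, had 730.0, 106, 157 and 236 in saline 3d and 2698, 1428, 1366 and 1036 in MABs 3d. Its log2 fold change was 2.72 (SE 0.55, limma adjusted p = 0.0067). Tead1, a factor of the Hippo pathway found in many tissues, differed by 3.19 (SE 0.76, adjusted p = 0.012), and the call was lost without saline 3d replicate 8 (2.48, adjusted p = 0.062). Tead1 also followed the share of AY172581.24 (Spearman rho 0.88 over 24 libraries, Pearson r 0.85 among the 12 of 3d), and the part of that share was not tested. Between days, 2 of the 15 were called higher at 3d in saline, 5 in MABs and 4 in MABs-VEGF, and none lower. Of all genes, 2.59%, 17.0% and 13.1% were called higher at 3d in the same comparisons. Among those called were Yy1, by 4.12 in MABs, and Tead1, by 4.20 in MABs-VEGF. Erbb3 was higher by 1.01 in MABs, a call lost under 7 of 19 alternatives. Zeb2, a factor that represses blockers of myelination and is also made by macrophages, was named after its values were seen. It was higher at 3d by 1.46 in saline, 1.67 in MABs and 1.68 in MABs-VEGF, with 1243 to 4567 at 3d and 378 to 924 at 7d. Its Spearman rho with the share of AY172581.24 was 0.78. The saline call of Zeb2 was lost under 5 of 19 alternatives. Nrg1, the axon signal for Schwann cells, was higher at 3d in MABs-VEGF by 2.59 (SE 0.65, adjusted p = 0.0068). Its co-receptor gene Erbb2 was at 0 in all 4 MABs 7d libraries and had 178, 71.1, 129 and 0 in MABs 3d, a mean at least 7.59-fold above the limit of 3 reads per library.

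Among 14 further myelin proteins and lipid enzymes, none was called between treatments. At 3d 13 of 14 had lower fitted values in MABs than in saline, with a median of -1.36 against 0.07 for all genes tested. The summed level of this list was 28762 in saline 3d replicate 8 and 4271 to 5175 in the rest of saline 3d. In MABs 3d it was 2670 to 3518. The 4 calls between days in MABs and 1 in saline were all lower at 3d, as were 6.05% and 0.602% of all genes. Mal, which sorts proteins in myelin and also in the urothelium, had 475 to 1108 in saline 3d and 1481 to 6462 in saline 7d, a log2 fold change of -2.47 (SE 0.53, limma adjusted p = 0.016) whose call was lost under 5 of 19 alternatives. In MABs Mal was lower by a log2 fold change of -2.06, and the other 3 calls were Fa2h, Gldn (-2.09) and Aspa (-1.99). Fa2h had at most 1 read in the MABs 3d libraries, so its mean of 124 in MABs 7d was at least 4.48-fold above the limit of 3 reads per library. Its 4 values in MABs 7d were 112, 13.2, 322 and 49.8, and without replicate 11, the highest, the mean was 58.2 and the bound 2.10-fold. The call of Aspa was lost under 6 of 19 alternatives, that of Gldn under 2 and that of Fa2h under 1. Fa2h makes hydroxylated lipids in myelin and in epithelia, Gldn gathers channels at nodes, and Aspa is also strong in fat cells. Upk2, the only gene called of the 4 urothelial genes tested, was lower in the same comparisons, with a log2 fold change of -3.99 in MABs. All 10 fat cell genes were called lower at 3d than at 7d in MABs, where 6.05% of all genes were. The part of these tissues in the calls was not tested. Of 10 axon and nerve terminal genes, Prph, a filament of peripheral neurons, was higher at 3d in saline by 1.35 (SE 0.33, limma adjusted p = 0.024). That call was lost under 8 of 19 alternatives, and no other gene of the list was called. Of all genes, 2.59% were called higher at 3d in saline. Between days 23% of all genes were called in MABs and 15.3% in MABs-VEGF.

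Markers of other cells moved between the same groups. In MABs against saline at 3d, 3 of 7 fibroblast, 4 of 8 macrophage, 2 of 7 endothelial and 1 of 10 fat cell genes were called lower and 2 of 4 striated muscle genes higher. Of all genes, 2.86% were called lower and 9.40% higher in that comparison. The summed fibroblast level was 57710 to 318636 in MABs 3d and 357888 to 537609 in saline 3d, and the summed macrophage level was 1243 to 13606 against 11983 to 24306. No gene of the urothelial, smooth muscle, immediate early, melanocyte or T and B cell lists was called there. The T and B cell genes Cd79a and Ms4a1 were at 0 in 24 and 23 libraries. Between days, 5 of 9 immediate early genes in MABs-VEGF, 3 of 5 smooth muscle genes in MABs and 1 of 3 melanocyte genes in MABs were called lower at 3d, as were 2.24% of all genes in MABs-VEGF and 6.05% in MABs. The part of tissue makeup in the lower values of S100b, Sox10 and Mbp in MABs at 3d was not tested.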

How the data were processed

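RNA of urethral tissue from 24 samples was sequenced by the authors as Lexogen QuantSeq 3ʹ libraries with single-end reads of 50 bases. Trimming was by fastq-mcf and alignment by HISAT2 on Rnor6.0. The authors kept uniquely mapped reads, took counts per gene from HT-seq Count and divided them by DESeq2 size factors, so the deposited signal is a normalized count per gene. Multi-mapped reads being lost, genes with close copies may be undercounted. In each sample 100% of values were whole multiples of 1 read (tolerance 0.1), which returned the depth.

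Groups came from the labels. The test, two-sided, was the moderated one of limma 3.58.1 (R 4.3.3, prior variance with a trend) on log2(normalized count + 1), in 1 fit of 6 groups, over genes with a mean of at least 2. Alternatives were quantile normalization, equal totals, a pseudocount of 5, no filter or one at 10, edgeR 4.0.16 and DESeq2 1.42.0 on the recovered reads, quality weights, only the groups compared, 22 samples (without saline 3d replicate 6 and MABs-VEGF 3d replicate 4), the replicate number as a block and leaving out each sample. The fit of 21 samples without milk protein transcripts, and that list, were added after seeing the data. The limma step was tested on simulated data. Summaries used python 3.11.15 with pandas 2.3.3.

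The 7 genes and all lists were chosen with earlier results of these data known. Named were the 7 genes, up to 4 called genes of each nerve or Schwann cell list by size of fold change, and the 3 genes most correlated with each gene of mean 20 or more. Sox2, Zeb2, Ncam1, Scn7a, Erbb3 and the cell type genes Upk2, Mitf, Pmel, Tyrp1, Tyr, Mlana, Cd79a and Ms4a1 were named after their values were seen. Promoter sequences came from a RefSeq table of GRCr8, used for sequence only. A gene that the rule names is not reported here.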

Additional observations from a re-analysis of the deposited data

Results flagged for a closer look

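In 14 of 42 sets of 4 samples (7 genes in 6 groups), 1 sample lay far from the other 3 by Dixon's ratio. The ratio was taken on normalized counts, not on their log2. Its cut-off flags about 1 in 20 only for normally distributed values, and the 7 genes share libraries, so that rate cannot be applied here. All were the highest of their group. MABs-VEGF 7d replicate 11 held 5 of them. It had 9046 normalized counts of Mbp against 431 in the nearest sample, 1213 of Sox10 against 259.6, 788 of Prx against 87.1, 152 of Mag against 5.70 and 639 of Egr2 against 113. Saline 3d replicate 8 held 3, with 3434 of Mbp against 603, 9168 of S100b against 1673 and 2908 of Sox10 against 332. Both are samples with milk protein transcripts. MABs-VEGF 3d replicate 4 held 2, with 111 of Prx against 32.4 and 13.4 of Mag against 0, which was 3 reads. The others were Mbp in MABs 3d replicate 1 (419 against 166) and MABs 7d replicate 13 (1992 against 458), Pmp22 in saline 7d replicate 1 (6115 against 4364) and S100b in MABs-VEGF 3d replicate 2 (2900 against 948).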

How the results depend on the processing

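How many of the 7 genes were called changed with the processing in 3 of 11 comparisons. For MABs against saline at 3d it was 0, but 1 (S100b) with quantile normalization, equal totals or edgeR and 2 (S100b, Sox10) with DESeq2. It was 1 (S100b) also without MABs-VEGF 3d replicate 2 or MABs-VEGF 7d replicate 11, samples outside that comparison. For MABs at 3d against 7d it was 0, but 1 (Mbp) with only the groups compared or with 21 samples. For MABs-VEGF at 3d against 7d it was 1 (Prx), but 0 with no filter, with only the groups compared, with 21 samples and with DESeq2, which gave Prx no adjusted p, and 0 to 1 when each sample was left out. The other 8 counts stayed at 0 under each alternative run. MABs-VEGF and MABs at 3d shared replicate numbers 1 to 4. The fit with the replicate block also called 0 of the 7. Same-numbered samples deviated together with r of 0.22, 0.15, 0.073 and 0.25, number 3 correlated best with number 2, and the numbers were not taken as pairs.

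Some fold changes near 0 turned direction, and the cause was not tested. For MABs against saline at 3d, Egr2 became 0.61 with quality weights and 0.16 with 21 samples, and ran from -1.08 to 0.16 when each sample was left out, while Pmp22 ran from -0.55 to 0.087. For MABs-VEGF against saline at 3d, Egr2 became 0.52 with quality weights, 0.14 with 22 samples and 0.58 with 21, and ran from -0.65 to 0.58. Mbp became 0.50 with quality weights and 0.67 with 21 samples, and ran from -0.67 to 0.67. Pmp22 became -0.062 with quantile normalization, -0.057 with edgeR, -0.22 with equal totals, -0.69 with quality weights, -0.25 with 22 samples and -0.27 with 21, and ran from -0.27 to 0.25.

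Counts over all genes moved more. MABs against saline at 3d gave 1997 calls, 219 with 21 samples and 5 with only the groups compared. MABs-VEGF against saline at 3d gave 5 calls, 397 with DESeq2, 1497 with quality weights and 2213 with 22 samples, and saline at 3d against 7d gave 520, 1386 with DESeq2, 31 with 22 samples and 0 with only the groups compared. Depth limits Mag, at 3 reads or fewer in 19 libraries, and Erbb2, at 0 in 14.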
